A study of Caenorhabditis elegans with 7 samples.

Results

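The comparison of mog-2(ok1221) with wildtype in experiment 1 set 1 mutant library against 1 wildtype library of the same experiment number, 2 of the 7 small RNA libraries of the series. These 2 libraries were taken by genotype and experiment number from the sample titles, and wildtype from experiment 2 served to gauge the spread. All were prepared from embryos of Caenorhabditis elegans in the N2 background, released from adults with hypochlorite, with small RNA cut from a gel. Wildtype 1 and wildtype 2 are N2 without a mutation, and mog-2(ok1221) carries the ok1221 allele of mog-2. The other libraries, used in the fits and for comparison, were rnp-3(ok1424) and rnp-2(mg582) of experiment 1. From experiment 2 they were rnp-2(mg582) and rnp-2(tm4058). The age of the embryos and whether mutant embryos were homozygous are not stated in the labels. Nothing in the labels says that the wildtype libraries came from separate cultures. The p-values therefore measure the spread between libraries, which may be technical, and mog-2(ok1221) itself has no replicate check.

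As background, mog-2 encodes the worm homolog of the A' protein of the U2 snRNP, the spliceosome particle that recognises the branch point upstream of an acceptor site. The gene is named for masculinization of the germ line, in which mutant hermaphrodites go on making sperm. Worm endogenous small interfering RNAs are copied by RNA-dependent RNA polymerases from RNA templates. A small RNA that crosses an exon-exon junction therefore reads a spliced template, and one that crosses an intron-exon boundary reads an unspliced template.

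The deposited table lists 2 kinds of junction read, EEJ and IEJ, which are read here as exon-exon (spliced) and intron-exon (unspliced). It covers 7678 introns of 3717 genes. Wildtype 1 had 296830 spliced and 23361 unspliced reads at these introns, wildtype 2 had 474285 and 36892, and mog-2(ok1221) had 232762 and 20300. The libraries held 20830155, 88364327 and 13068321 reads in the same order. The listed junctions took 1.54% of wildtype 1 and 1.94% of mog-2(ok1221) but 0.578% of wildtype 2, and the other libraries of experiment 2 were lower still, at 0.235% and 0.0564%. Levels are CPM (reads scaled to a common library size) divided by a TMM factor for spliced reads (scaled CPM), so each is a level relative to most other listed genes. Of the 3 genes mutated in the series, mog-2 has no listed junction. The junctions of rnp-2 held 11, 15 and 19 reads and those of rnp-3 held 5, 8 and 11 reads in wildtype 1, wildtype 2 and mog-2(ok1221), so the labels could not be checked from these reads.

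The splice sites below belong to 4 introns with a higher and 4 with a lower ratio of unspliced to spliced reads in mog-2(ok1221), in that order, so that the sites can be read beside the values. They had the largest changes of that ratio against wildtype 1 among annotated introns of chromosomes II to V and X whose unspliced share lay beyond both wildtype libraries. Some changes of the unspliced share were small, as at F39F10.4 and Y57G11C.51. The introns were chosen after their values had been seen. Each line gives 15 bases in the direction of the gene, with the 10 intron bases in capitals and the 5 exon bases in lower case.
C04G2.10 intron 2 donor: gaaaaGTATGTTTTT
C04G2.10 intron 2 acceptor: TATTTTGCAGagctt
F10E7.2 intron 1 donor: ggaaaGTTAGTTCAT
F10E7.2 intron 1 acceptor: TAATCTTCAGgcaca
W03H9.2 intron 1 donor: gaacgGTAAGTCAAT
W03H9.2 intron 1 acceptor: GCGGCTTCAGaagcg
F39F10.4 intron 2 donor: cttaaGTGAGTTTCC
F39F10.4 intron 2 acceptor: ATAAATTCAGagaaa
R09H3.3 intron 3 donor: tgaagGTATATCCTC
R09H3.3 intron 3 acceptor: ATTCTTCCAGttgag
R09H3.3 intron 5 donor: tcgagGTAATAATTA
R09H3.3 intron 5 acceptor: CAATATTCAGaactc
Y57G11C.51 intron 2 donor: aggagGTATGTTATA
Y57G11C.51 intron 2 acceptor: AATTATTCAGgtcgt
T22B2.2 intron 3 donor: aaatgGTTTGTTCTC
T22B2.2 intron 3 acceptor: TTTTTTTCAGgatgg
All of these introns begin with GT and end with AG. The 5 letters GTAAG, common at worm donor sites, open 28.5% of the 295 introns that had enough reads of both kinds. They open 3 of the 8 introns with a higher unspliced share and 2 of the 8 with a lower one. The letters TTCAG close 59.0% of the 295 introns, 4 of the 8 higher ones and 5 of the 8 lower ones. The letters were read at fixed positions on the strand of the gene.

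Spliced small RNA reads of some genes differed between mog-2(ok1221) and wildtype. The genes for the Smad protein SMA-3 and the homeodomain protein CEH-20 had more spliced reads, and the genes for the cadherin CDH-12, the tetraspanin TSP-14 and the sex switch XOL-1 had fewer. Of 3551 genes tested, 76 passed (2.14%; limma with Benjamini-Hochberg adjustment over all genes, adjusted p under 0.05), 35 higher (0.986%) and 41 lower (1.15%) than wildtype, and 706 had an unadjusted p under 0.05. The fit used all 7 libraries, and the lone mog-2(ok1221) library was assumed to vary like the genotypes with 2 libraries. With the experiment number as a replicate block 490 genes passed (13.8%), 231 higher and 259 lower, and the 76 were among them. The block leaves fewer residual degrees of freedom than the fit without it. Its smaller p-values, here and below, therefore rest on less replication and are no firmer support. No gene passed when wildtype 1, wildtype 2, rnp-2(mg582) 1 or rnp-2(mg582) 2 was omitted, and the 76 genes kept their sign each time. These are the only replicated libraries, so omitting any of them also cuts the residual degrees of freedom. The loss of calls therefore cannot show whether they rest on the values of a single library. With scaling by library size alone 2 genes passed.

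By size alone, 66 genes stood at least 2-fold above both wildtype libraries (6.16% of the 1071 genes with at least 1 scaled CPM in wildtype 1, wildtype 2 or mog-2(ok1221)) and 90 stood at least 2-fold below both (8.4%). The wildtype libraries themselves were at least 2-fold apart at 42 of these genes (3.92%), 31 of them higher and 11 lower in wildtype 2. Of the 66 and 90 genes, 28 and 36 also passed limma. With library size alone the split was 254 above and 25 below. That scaling placed the median of all genes 0.44 above wildtype on the log2 scale in the limma fit, against -0.01 with TMM. Within experiment 1 the median moved less, to 0.08.

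**Figure D1:**
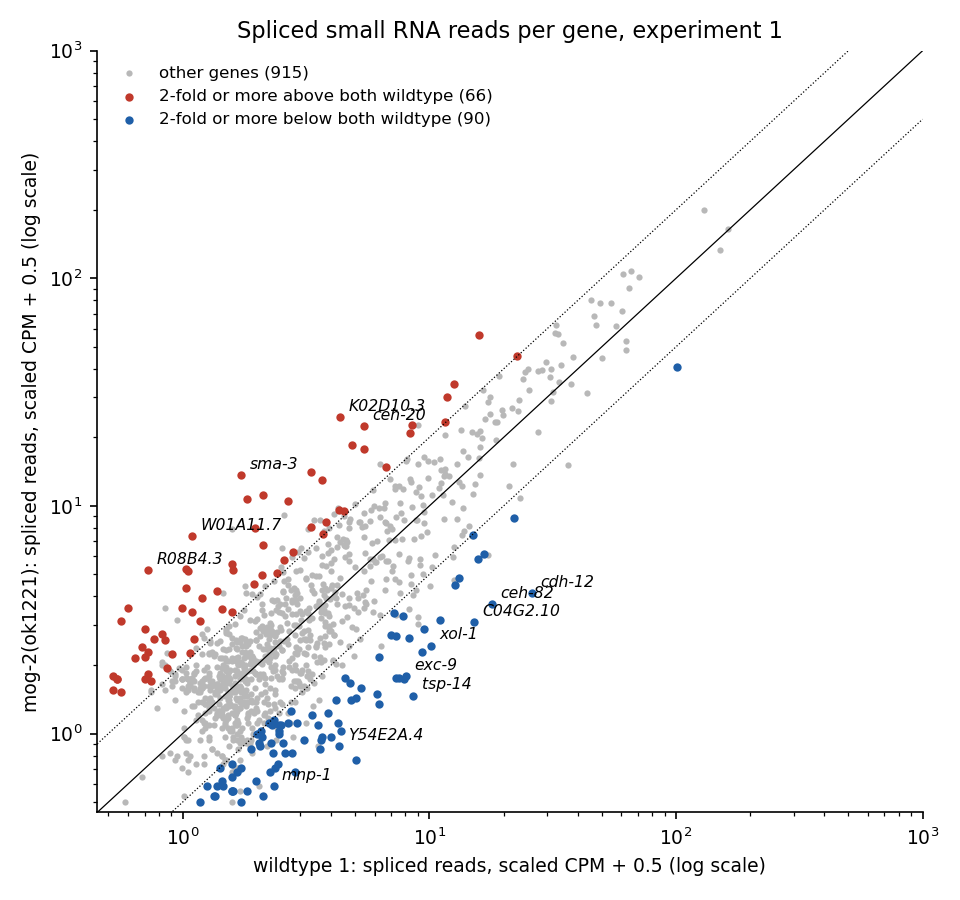
Spliced reads of each of 1071 genes in wildtype 1 (x axis) and mog-2(ok1221) (y axis), both as scaled CPM + 0.5 on log axes. The solid line marks equality and dotted lines a 2-fold difference. The 66 genes in red and 90 in blue lie at least 2-fold beyond both wildtype libraries, and grey genes outside the dotted lines lie within 2-fold of wildtype 2.

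Among regulators of development and transcription, sma-3 showed the largest rise. It encodes a Smad, the signal transducer of the BMP-like pathway that sets body size, and lies at III:6860974-6863968 (WBcel235). Its spliced reads were 1.22 scaled CPM in wildtype 1, 1.70 in wildtype 2 and 13.1 in mog-2(ok1221), from 60, 129 and 448 reads. Both wildtype libraries were far below the mutant, and rnp-3(ok1424), a mutant of another U2 snRNP protein (B''), stood between them and mog-2(ok1221) at 3.46. The rise over wildtype 1 was 7.91-fold on the scale of scaled CPM + 0.5, and the limma estimate over both wildtype libraries was 2.81 ± 0.32 (log2 ± SE; adjusted p = 0.0202). On the same chromosome, ceh-20 (III:6979884-6981785) encodes a Pbx-type homeodomain partner of Hox proteins. It had 4.92, 5.77 and 21.9 scaled CPM in wildtype 1, wildtype 2 and mog-2(ok1221), a limma change of 1.94 ± 0.31 (adjusted p = 0.0279 by limma). In the libraries of rnp-2, whose product is the worm homolog of the U1 snRNP A protein, ceh-20 stood below wildtype, at 2.65 and 2.50 in rnp-2(mg582) and 1.99 in rnp-2(tm4058).

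Other genes of transcription factors had fewer spliced reads in the mutant. The homeobox gene ceh-82 (II:1732232-1733291) had 17.5 scaled CPM in wildtype 1, 12.5 in wildtype 2 and 3.19 in mog-2(ok1221), and fell by 2.05 on the log2 scale (limma, adjusted p = 0.0300). It stood lower again in rnp-2(mg582), at 1.001 and 0.693, and in rnp-2(tm4058), at 0.745. Of 2 nuclear hormone receptor genes, nhr-228 (V:2281759-2284963) fell from 5.73 and 3.84 to 0.850 (limma, adjusted p = 0.0368). The other, nhr-146 (IV:1626805-1630756), had 7.41 and 4.22 in wildtype and 1.23 in mog-2(ok1221) but did not pass limma (adjusted p = 0.0587, and 9.22e-05 with the block). In the other mutants nhr-228 stood at 1.66 to 2.32 and nhr-146 at 1.90 to 3.23, also below both wildtype libraries. The zinc finger gene ztf-13 on X (X:3100166-3102175) had 3.51 and 3.35 in wildtype and 0.469 in mog-2(ok1221), and fell by 2.02 on the log2 scale (limma, adjusted p = 0.0266). It was below wildtype in the other mutants too, at 1.23 to 1.42.

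Falls were also seen at genes of membrane and cell surface proteins, which were not tested as a group. The cadherin gene cdh-12 (III:1152044-1181147) had 25.5 scaled CPM in wildtype 1, 19.7 in wildtype 2 and 3.63 in mog-2(ok1221), from 1250, 1493 and 124 reads. The other 4 mutant libraries lay between 14.6 and 23.98, so mog-2(ok1221) stood alone below all of them. The limma change was -2.47 ± 0.30 (adjusted p = 0.0202), and the difference from rnp-3(ok1424) also passed (limma, adjusted p = 0.0401). Both of these mutants have 1 library, so their comparisons borrow the spread from the other genotypes. The tetraspanin gene tsp-14 (X:4866681-4876965), whose product acts in BMP-like signalling in the worm, had 8.10, 8.01 and 0.967 scaled CPM in wildtype 1, wildtype 2 and mog-2(ok1221). The wildtype libraries were nearly equal, the other mutants ranged from 6.22 to 7.62, and the limma change was -2.54 ± 0.30 (adjusted p = 0.0202). A further gene, mnp-1 (III:4356594-4364979), kept 3 reads in mog-2(ok1221) against 90 and 149 in wildtype. In scaled CPM it had 1.84 and 1.96 in wildtype, 0.0879 in mog-2(ok1221) and 0.340 to 0.934 in the other mutants. Its ratio to both wildtype libraries was 0.0459 with a 95% exact counting interval of 0.00941 to 0.136, which covers counting error only.

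In sex determination, xol-1 and sdc-1 both fell, and these were the 2 of 11 tested genes of a list of sex determination genes that passed limma, where 1.15% of all genes tested passed lower. Both lie on X, where 12 of 251 tested genes passed lower by limma, against 29 of 3300 autosomal genes. The gene xol-1 (X:8041313-8044409), the switch that starts male development, had 9.63 scaled CPM in wildtype 1, 11.2 in wildtype 2 and 1.93 in mog-2(ok1221). It was lower than wildtype in the other mutants too, at 3.56 to 6.73, and its limma change was -2.16 ± 0.31 (adjusted p = 0.0266). The gene sdc-1 (X:16275763-16282534), which acts in hermaphrodite sex determination and dosage compensation, had 1.88, 4.48 and 0.205 scaled CPM in wildtype 1, wildtype 2 and mog-2(ok1221). Only 7 reads remained in mog-2(ok1221), and the wildtype libraries differed more from each other here than at xol-1 (limma change -2.29 ± 0.42, adjusted p = 0.0391). The level of sdc-1 was also low in the rnp-2 libraries, at 0.151 to 0.579, but stood at 3.53 in rnp-3(ok1424). Of the other members, tra-2 had 32, 73 and 13 reads, mog-1 had 3, 8 and 12, and fbf-1 had 35, 49 and 30 in wildtype 1, wildtype 2 and mog-2(ok1221), and none of these passed.

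Several risers have no role that is stated here. W01A11.7 (V:6504540-6505389) had 0.592 and 0.237 scaled CPM in wildtype and 6.89 in mog-2(ok1221), with 0.510 in rnp-3(ok1424). It was the largest limma change of any gene named here, 3.04 ± 0.32 (adjusted p = 0.0193), and mog-2(ok1221) also exceeded rnp-3(ok1424) (limma, adjusted p = 0.0401). R08B4.3 (X:11118959-11121005) had the smallest limma p and showed the other pattern, with 0.224 and 0.264 in wildtype, 4.72 in mog-2(ok1221) and 3.63 in rnp-3(ok1424), while the rnp-2 libraries held 0.194 to 0.248 (limma change 2.81 ± 0.25, adjusted p = 0.0169). The neighbours K02D10.2 (III:8770734-8771262) and K02D10.3 (III:8771334-8771951) rose together, from 1.33 and 1.87 to 10.2 and from 3.84 and 3.40 to 23.98 (limma, adjusted p = 0.0266 for each). ZK1055.7 (V:6602720-6605375) rose from 1.61 and 2.48 to 10.6, and R09H3.3 (X:1666929-1668848) from 2.82 and 4.24 to 13.6 (limma, adjusted p = 0.0284 and 0.0396). Another 3 genes stood at least 2-fold above both wildtype libraries without passing limma. R04E5.8 had 1.47, 2.86 and 7.503 scaled CPM in wildtype 1, wildtype 2 and mog-2(ok1221), tag-168 had 2.18, 4.40 and 9.97, and nmtn-1 had 4.37, 3.80 and 17.9 (adjusted p = 0.0851, 0.102 and 0.0520 by limma, and 0.000156, 0.000291 and 0.000352 with the block).

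Among the remaining falls, C04G2.10 (IV:10115442-10118118) had 14.7 and 11.68 scaled CPM in wildtype, 2.58 in mog-2(ok1221) and 1.29 in rnp-3(ok1424), with 9.59 to 13.3 in the rnp-2 libraries. Its limma change was -2.14 ± 0.34 (adjusted p = 0.0279), and its introns are described with the ratios below. Y54E2A.4 (II:14754622-14778149) had 3.81 and 8.77 in wildtype, 0.381 in mog-2(ok1221) and 0.408 to 1.32 in the other mutants, so every mutant library lay below both wildtype libraries. The excretory canal gene exc-9 (IV:7939807-7941019) had 7.57 and 6.72 in wildtype, 1.29 in mog-2(ok1221) and 10.6 in rnp-3(ok1424), and the difference between the 2 mutants passed (limma, adjusted p = 0.0490). Y57A10C.10 (II:12440132-12441264) fell from 7.04 and 5.60 to 1.26 (limma, adjusted p = 0.04998). The level of Y57A10C.10 was 5.40 in rnp-3(ok1424) and 1.16 to 2.71 in the rnp-2 libraries. C06B8.7 (V:15498734-15511421) kept 1 read in mog-2(ok1221) against 79 and 113 in wildtype and 84 in rnp-3(ok1424). Over all 3551 genes, 9 differed between mog-2(ok1221) and rnp-3(ok1424) (0.253%; limma, adjusted p under 0.05), 3 higher and 6 lower in mog-2(ok1221).

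**Figure D2:**
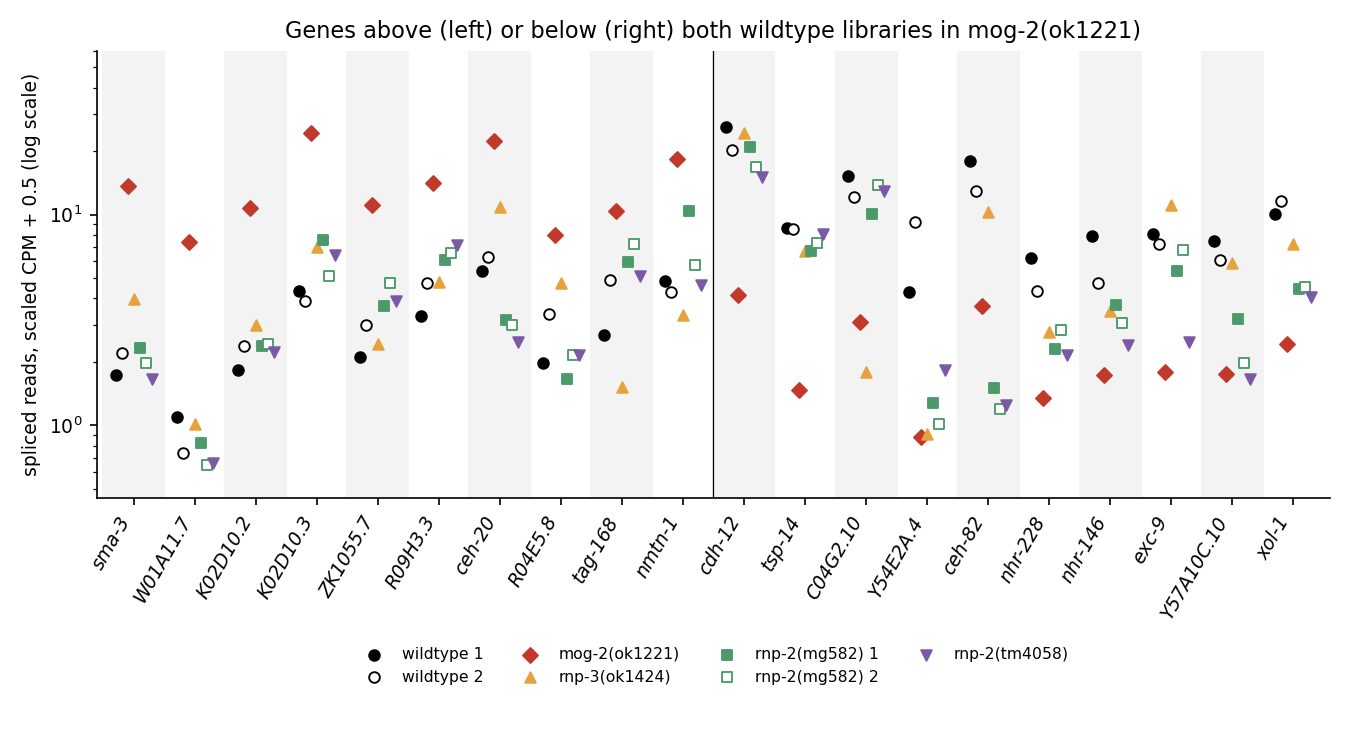
Spliced reads (scaled CPM + 0.5, log axis) of the 10 largest rises (left) and the 10 largest falls (right) among genes with at least 5 scaled CPM, 1 point per library. The mog-2(ok1221) diamonds lie above both wildtype circles for sma-3 (13.1 against 1.22 and 1.70) and below both for cdh-12 (3.63 against 25.5 and 19.7).

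The junctions within a gene spread as follows. For each of these 20 genes, every exon-exon junction with at least 20 reads in wildtype 1 and mog-2(ok1221) together lay on the same side of 0 as the gene, which the choice of the genes by the sum of these junctions largely fixes. The gene nhr-228 had 1 such junction. In cdh-12, 6 junctions with that many reads lay between -2.45 and -0.86 (log2, mog-2(ok1221) against wildtype 1), and in ZK1055.7, 5 junctions lay between 1.15 and 1.96. The widest spread among the falls was in C04G2.10, with -2.67 at 1 junction and -0.40 at the other. In nmtn-1, 11 junctions ranged from 0.05 to 1.88. Junctions of 1 gene share a library and a transcript, so they are not replicates.

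**Figure D3:**
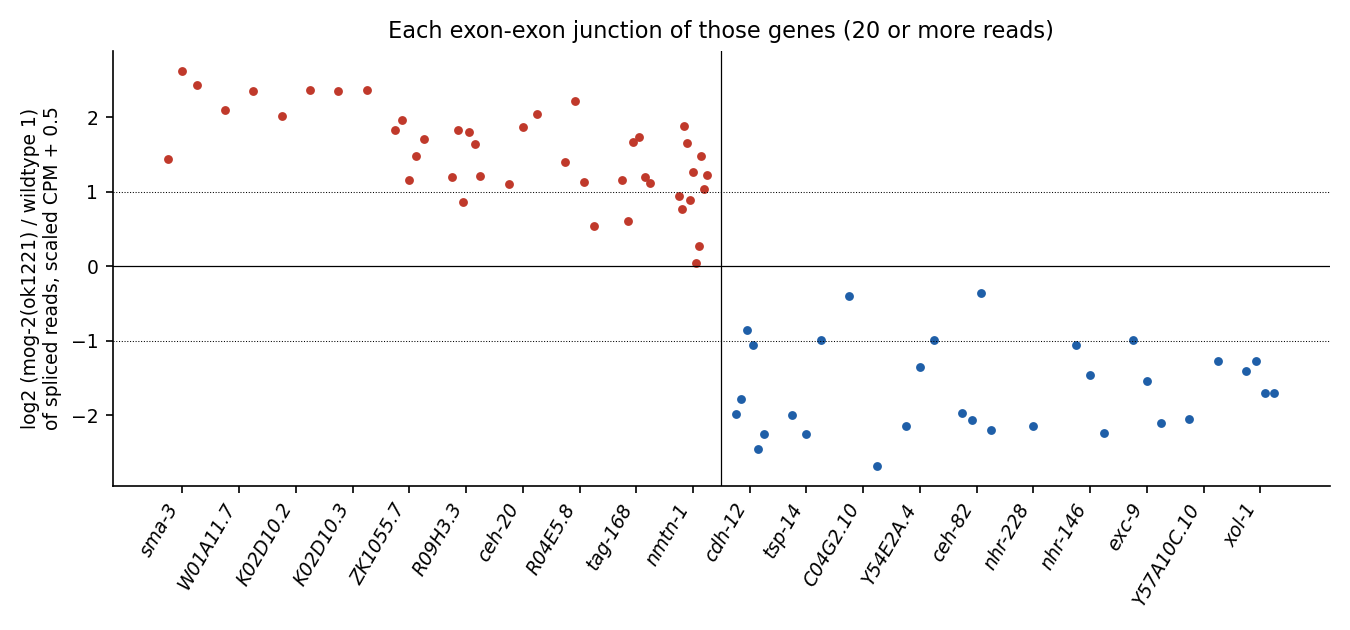
Log2 ratio of mog-2(ok1221) to wildtype 1 in spliced reads (scaled CPM + 0.5) at each exon-exon junction with at least 20 reads, for the same 20 genes. Dotted lines mark 2-fold. The 11 points of nmtn-1 reach from 0.05 to 1.88, and the 6 points of cdh-12 from -2.45 to -0.86.

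Every line of the deposited table reaches 0.5 CPM in at least 1 library, and 268 genes reached it in mog-2(ok1221) alone. For such a gene the listing itself favours a higher value in mog-2(ok1221). Among the 35 limma rises 7 were of that kind, so their calls are no independent sign of the direction. The glutathione S-transferase gene gst-24 (II:13610443-13611366) is one of them, with 19 reads in mog-2(ok1221) and 0 in each of the other 6 libraries. It was also the 1 call among 19 tested stress genes, where 2.14% of all genes passed. With the replicate block 3 of these stress genes passed higher and 1 lower, where 13.8% of all genes passed. The chaperone gene hsp-1 of that list had 2.69 and 2.08 scaled CPM in wildtype and 2.93 in mog-2(ok1221). Of 7 cuticlin genes cutl-15 (II:8942668-8947688) rose from 0.0612 and 0.145 scaled CPM to 2.61 (limma change 2.37 ± 0.27, adjusted p = 0.0202). The level of cutl-15 was 0.849 to 1.24 in the other mutants, also above both wildtype libraries. Among 14 tested collagen genes none passed limma. Their col-45 stood at 0.442 in rnp-3(ok1424), 2.87 and 2.23 in rnp-2(mg582) and 1.24 in rnp-2(tm4058). The collagen gene col-45 had 0.592, 1.11 and 2.93 scaled CPM in wildtype 1, wildtype 2 and mog-2(ok1221) (limma, adjusted p = 0.0874, and 0.00338 with the block).

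In the lists of small RNA and splicing machinery no gene passed limma, which at 2.14% of all genes is near the background for lists of this size. Of 45 RNA interference factors none passed, and with the replicate block 3 stood higher and 1 lower, where 13.8% of all genes passed. Their most abundant members were the chromatin factor gene zfp-1, the ERI helicase gene eri-6 and the RING finger gene rde-11. The gene zfp-1 had 22.3, 19.5 and 45.1 scaled CPM in wildtype 1, wildtype 2 and mog-2(ok1221) (limma, adjusted p = 0.0531, and 0.00240 with the block), and 35.6 to 44.6 in the other mutants. The gene rde-11, which acts in amplifying secondary small RNAs, had 8.49, 11.3 and 22.3 scaled CPM (limma, adjusted p = 0.0954, and 0.000739 with the block) and 16.4 to 24.4 in the other mutants. The gene eri-6 had 22.6, 19.7 and 28.6. None of 33 splicing factor genes passed, with the block 1 stood higher, and the list's median log2 difference from wildtype 1 was 0.15. Among the most abundant of them, rsp-4 for an SR protein and snrp-200 for the U5 helicase, had 3.43, 4.13 and 2.40 and 1.71, 1.78 and 2.34 scaled CPM.

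Of 16 tested targets of ERGO-1, the Argonaute of an embryonic small RNA pathway, none passed limma, and their summed level was 209.4, 265.3 and 209.7 scaled CPM in wildtype 1, wildtype 2 and mog-2(ok1221). E01G4.5 carried most of that sum, with 151, 220.1 and 133 scaled CPM. Its wildtype libraries lay farther apart than wildtype 1 and mog-2(ok1221). F55C9.3 had 13.4, 10.2 and 27.02 and F55C9.5 had 8.996, 10.7 and 15.9, while rnp-2(mg582) held 98.6 and 172 of the first and 45.05 and 120.3 of the second. T24A6.20 and C18D4.6 stood at least 2-fold below both wildtype libraries, at 0.616 against 3.75 and 2.20 and at 0.498 against 1.51 and 1.78 (adjusted p = 0.0608 and 0.125 by limma). With the block, 3 genes of the list passed higher and 3 lower, where 13.8% of all genes passed in either direction.

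No ribosomal protein, translation factor, F-box, MATH and BTB, histone, or germline and maternal gene of the lists passed limma. The medians were -0.25 for 20 ribosomal protein genes and -0.15 for 13 translation factor genes (log2 against wildtype 1). With the block 5 ribosomal genes passed lower and 1 translation factor gene higher, where 13.8% of all genes passed in either direction. The most abundant ribosomal genes were rps-4, rpl-31 and rpl-23. In that order they had 0.898, 0.877 and 0.938 scaled CPM in wildtype 1 and 1.44, 1.01 and 1.20 in wildtype 2. In mog-2(ok1221) they had 0.762, 0.703 and 0.293. F-box genes, a large family of ubiquitin ligase adaptors with many near-identical copies, had a median of -0.08 over 58 tested. Their fbxa-13 had 5.73, 5.31 and 1.67 scaled CPM in wildtype 1, wildtype 2 and mog-2(ok1221) (adjusted p = 0.0531 by limma, and 0.000900 with the block). How reads that match near copies were assigned is not stated, and whether fbxa-13 reads match such copies was not checked. MATH and BTB genes had a median of 0.18 over 31 tested, and bath-45, the most abundant, had 54.1, 55.1 and 77.2. The linker histone genes hil-8 and hil-3 had 11.5, 10.2 and 12.98 and 0.918, 1.09 and 0.205 scaled CPM, neither passing limma, though hil-3 passed lower with the block (adjusted p = 0.00709). Germline and maternal genes, 41 tested, had a median of 0.00, and the egg coat gene cbd-1 had 3.28, 4.18 and 3.84.

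Markers of cell types were few in these small RNAs. The 10 oocyte and maternal markers listed summed to 9.20, 9.04 and 9.09 scaled CPM in wildtype 1, wildtype 2 and mog-2(ok1221), and 3 sperm markers to 3.57, 2.91 and 2.93. Of 16 neuronal markers 4 were listed, summing to 36.5, 28.2 and 15.0, nearly all from unc-10 with 1768, 2089 and 498 reads (adjusted p = 0.0851 by limma). The 2 listed muscle markers summed to 2.65, 1.27 and 0.791, and 3 markers of zygotic embryo cells to 1.35, 0.804 and 0.909. None of 13 intestinal markers had a listed junction. No marker passed limma, and with the replicate block spe-47 of sperm passed higher (16, 38 and 51 reads) and unc-10, lev-11 of muscle (75, 37 and 3) and hnd-1 of zygotic cells (13, 12 and 1) passed lower (adjusted p = 0.00991, 0.00249, 0.000832 and 0.0375). Over all genes 13.8% passed with the block. The part of a shift in embryo stage or cell makeup in the gene changes was not tested, and fewer targeted cells and less small RNA per cell cannot be told apart in whole embryos.

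The unspliced share was slightly higher in mog-2(ok1221) over all reads, but not at the median intron. Over all listed introns, unspliced reads were 7.21% of the junction reads of wildtype 1 (95% exact interval 7.12 to 7.30), 7.13% of wildtype 2 (7.06 to 7.20) and 7.96% of mog-2(ok1221) (7.85 to 8.06). The intervals of mog-2(ok1221) and the wildtype libraries do not overlap, but they cover counting error only and 2 wildtype libraries give little measure of the spread. The share was 7.30% in rnp-3(ok1424) and 7.98% to 8.53% in the rnp-2 libraries. At donor ends alone it was 3.02%, 2.75% and 3.59% in wildtype 1, wildtype 2 and mog-2(ok1221). At acceptor ends alone it was 3.24%, 3.65% and 3.46%, where mog-2(ok1221) lay between the wildtype libraries. Among 295 introns with at least 10 reads of each kind over the 3 libraries, and at least 20 reads in each, the median share was 4.68%, 5.49% and 5%. In mog-2(ok1221) 101 of them stood above both wildtype libraries and 110 below both.

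Classes of introns by length and splice site letters gave these values. The 148 introns of up to 60 bases had median shares of 4.28%, 4.48% and 4.998% in wildtype 1, wildtype 2 and mog-2(ok1221), and the 94 introns over 200 bases had 5.35%, 6.98% and 4.69%. Of the shorter ones 54 lay above both wildtype libraries and 47 below, and of the longer ones 28 above and 41 below. Introns that start with GTAAG had 4.77%, 5.02% and 4.77%, and the others 4.68%, 5.76% and 5.13%. None of these differences between classes was tested.

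**Figure D4:**
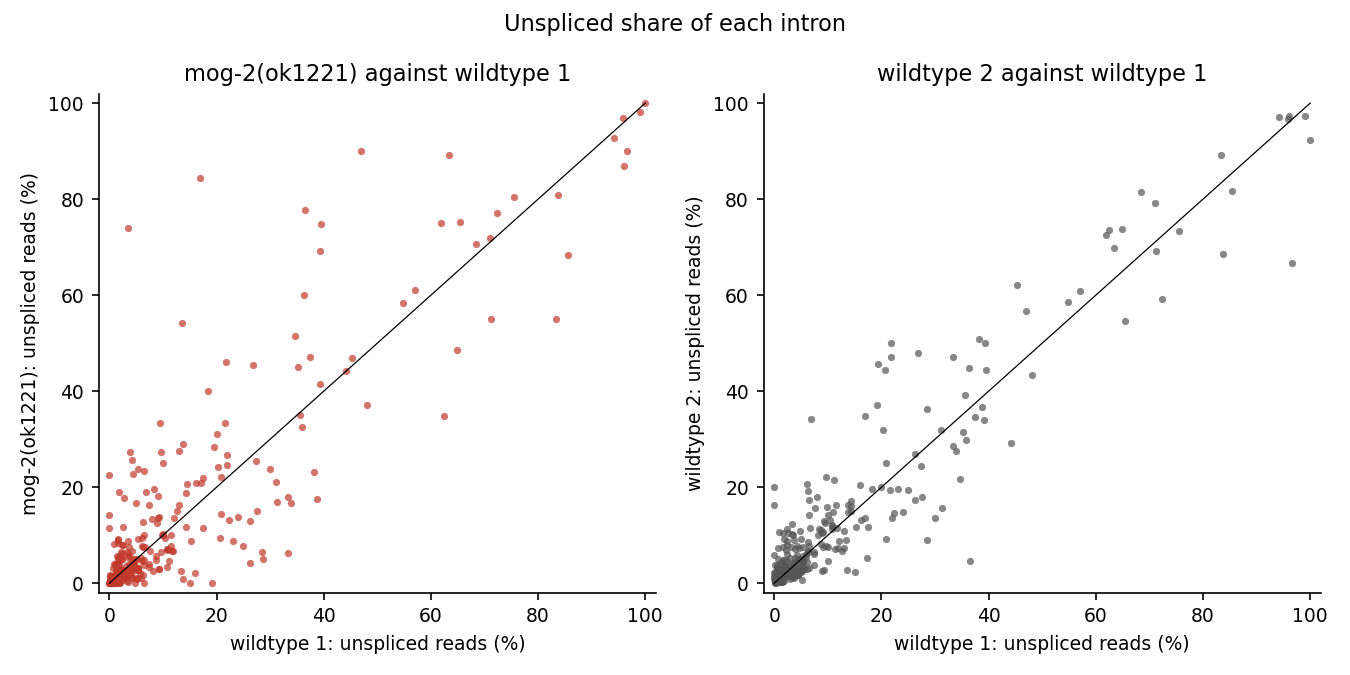
Unspliced share of the junction reads (percent) of each of 295 introns, in mog-2(ok1221) against wildtype 1 (left) and in wildtype 2 against wildtype 1 (right). The line marks equality. Medians are 4.68% in wildtype 1, 5.49% in wildtype 2 and 5% in mog-2(ok1221), and single introns such as C04G2.10 intron 2 (3.51% and 74.0%) lie far above the line at left.

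The ratio of unspliced to spliced reads, on the scale of scaled CPM + 0.5, was at least 2-fold above both wildtype libraries at 49 of 1416 introns (3.46%) and at least 2-fold below both at 62 (4.38%). The wildtype libraries were that far apart at 39 (2.75%). Most of these introns had hardly any unspliced reads: 84 of them, 33 higher and 51 lower, had fewer than 10 over the 3 libraries, so their ratio followed the spliced reads of genes such as sma-3 and cdh-12. With at least 10 unspliced reads, a limit set after the data had been seen, 16 of 359 introns were higher (4.46%) and 11 lower (3.06%), while wildtype 2 was higher than wildtype 1 at 8 and lower at 2 (2.79%). Of the 16 and the 11, 8 had an unspliced share above both wildtype libraries and 8 a share below both. The rest had fewer than 10 spliced reads (5 and 3), or no higher share (3). By limma 67 of 7186 introns passed (0.932%), 30 higher and 37 lower, and 42 of these had fewer than 10 unspliced reads, 16 fewer than 10 spliced reads, and 7 and 2 a share above and below both wildtype libraries. With the replicate block 841 introns passed, with the edgeR interaction test 1, and without wildtype 1, wildtype 2 or rnp-2(mg582) 2 none (757, 706 and 1165 at an unadjusted p under 0.05).

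C04G2.10 had fewer spliced reads in mog-2(ok1221) and more unspliced ones at its intron 2. At this intron, 2 of 3 (IV:10116862-10117164, 303 bases), unspliced and spliced reads were 2 and 55 in wildtype 1, 7 and 62 in wildtype 2 and 71 and 25 in mog-2(ok1221). That is 3.51%, 10.1% and 74.0%, with 95% exact intervals of 0.428 to 12.1, 4.18 to 19.8 and 64.001 to 82.4, so the mutant stood apart from both. The limma change of the log2 ratio was 2.43 ± 0.23 (adjusted p = 0.0095), and this was the intron that passed the edgeR interaction test over all introns (adjusted p = 0.0299). Of the 71 reads 63 lay at the donor end and 8 at the acceptor end. The share was 15.8% in rnp-3(ok1424) but 50% and 42.6% in rnp-2(mg582) and 66.7% in rnp-2(tm4058), so it was high in the rnp-2 mutants as well. At intron 3 of the same gene the spliced reads were 664, 824 and 58 and the unspliced reads 0, 18 and 0, so the loss of spliced reads there came without unspliced ones. In mog-2(ok1221) 0 unspliced beside 58 spliced reads allow an unspliced share of up to 5.17% (3 counts).

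F10E7.2 intron 1 of 3 (II:7122295-7122341, 47 bases) had the most reads among the 8 introns with a higher share. Unspliced and spliced reads were 40 and 1449 in wildtype 1, 48 and 2390 in wildtype 2 and 225 and 1044 in mog-2(ok1221), or 2.69%, 1.97% and 17.7%. The wildtype values were close together and far below the mutant, with 4.37% in rnp-3(ok1424) and 6.30% to 11.5% in the rnp-2 libraries. Reads at the 2 ends rose alike, 25, 13 and 120 at the donor and 15, 35 and 105 at the acceptor (limma change of the ratio 2.53 ± 0.38, adjusted p = 0.0416). W03H9.2 intron 1 of 3 (II:14143743-14143787, 45 bases) was often unspliced in wildtype already. Its unspliced reads were 83, 110 and 329 and its spliced reads 127, 138 and 111, a share of 39.5%, 44.4% and 74.8% in wildtype 1, wildtype 2 and mog-2(ok1221), with 54.1% in rnp-3(ok1424) and 86.1% to 94.7% in the rnp-2 libraries (limma change 1.81 ± 0.26, adjusted p = 0.0389). Among introns with at least 10 unspliced reads alone, it did not pass (limma, adjusted p = 0.0770), while those of C04G2.10 and F10E7.2 did (0.0295 and 0.0462), and 14 of 981 such introns passed (1.43%).

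Another 3 introns with higher shares lie on chromosome I. Y110A7A.21 intron 3 of 4 (I:5110646-5110689) had 47.0%, 56.7% and 90.0% unspliced (233 unspliced and 26 spliced reads in mog-2(ok1221)), nearly all at the acceptor end, and its ratio did not pass limma (adjusted p = 0.0540). Y20F4.4 intron 3 of 5 had 16.98%, 13.6% and 84.4%, and Y52B11A.18 intron 4 of 4, in a pseudogene, had 13.6%, 2.84% and 54.2%, from 27 unspliced and 5 spliced and from 13 and 11 reads in mog-2(ok1221) (limma, adjusted p = 0.0462 and 0.0454). F39F10.4 intron 2, in an ERGO-1 target, had 1.65%, 1.36% and 4.08%, with a mutant interval of 1.12 to 10.1 that takes in both wildtype values. Y73F8A.32 had 36.6%, 4.598% and 77.8%, so its wildtype libraries were far apart.

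Other introns had lower unspliced shares in mog-2(ok1221). R09H3.3, whose spliced reads rose, had lower shares at 2 introns: at intron 5 of 7 (X:1667264-1667312) unspliced reads were 4, 10 and 2 beside 21, 39 and 95 spliced, or 16%, 20.4% and 2.06% (limma change of the ratio -1.88 ± 0.26, adjusted p = 0.0301). At intron 3 (X:1667815-1667984) the shares were 13.8%, 16.3% and 0.962% (adjusted p = 0.0540 by limma). Unspliced levels at intron 5 were only 0.0816, 0.132 and 0.0586 scaled CPM in wildtype 1, wildtype 2 and mog-2(ok1221). At intron 3 they were 0.0816, 0.105 and 0.0293. The constant added to each level outweighs these, so both ratios mostly followed the spliced reads. Those reads rose by 1.82 and 1.80 at introns 5 and 3 (log2, mog-2(ok1221) against wildtype 1). By the edgeR interaction test neither passed (adjusted p = 0.424 and 0.299 with at least 10 unspliced reads). T22B2.2 intron 3 of 7 (X:3921277-3921748) had 38, 22 and 6 unspliced beside 107, 105 and 134 spliced reads, 26.2%, 17.3% and 4.29% (adjusted p = 0.0669 by limma). E01G4.5 intron 4 of 5, in the ERGO-1 target with the most reads, had 9.25%, 13.04% and 3.01%, but 22.3% in rnp-3(ok1424), and did not pass limma (adjusted p = 0.188). Y57G11C.51 intron 2 of 2 (IV:14773977-14774032) had 0.738%, 7.32% and 0.418%, so wildtype 1 and mog-2(ok1221) were close. Y58A7A.2, K02E2.11 and zip-2 each had 1 intron with a share below both wildtype libraries, at 6.58%, 6.38% and 1.04% in mog-2(ok1221).

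**Figure D5:**
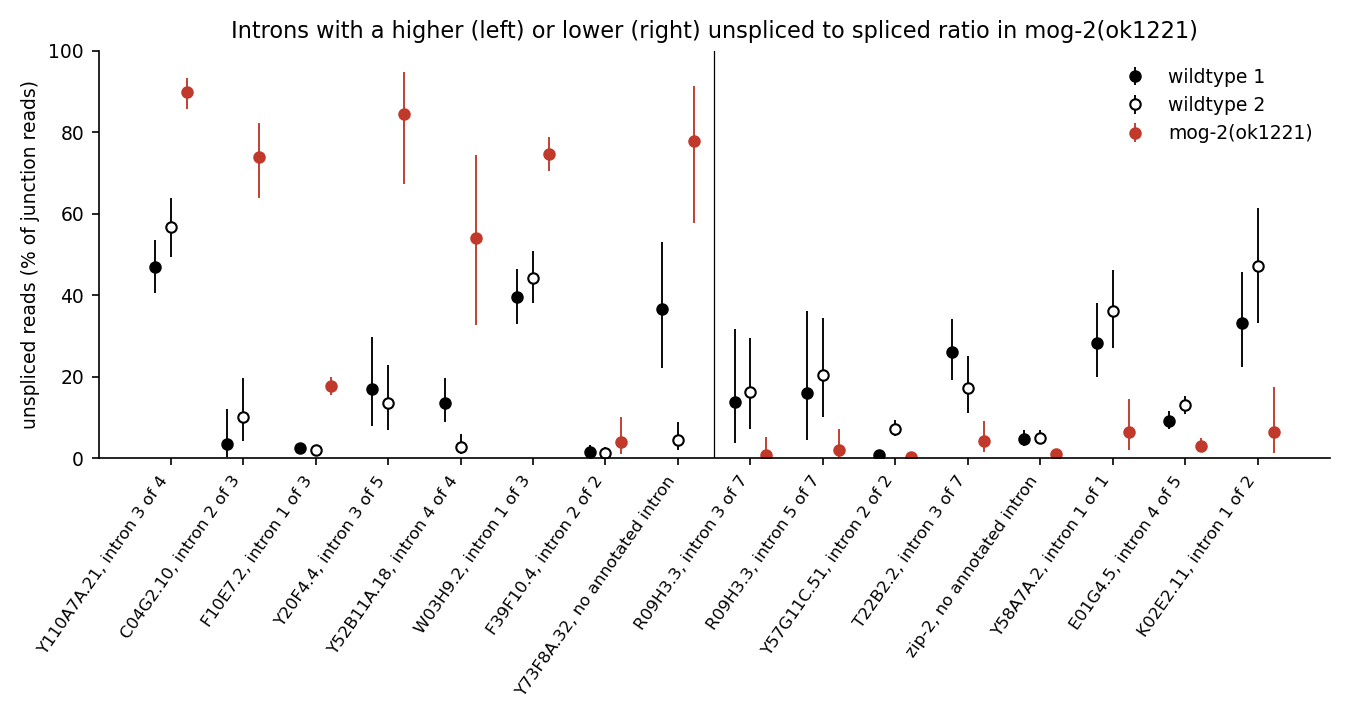
Unspliced share (percent of junction reads, with 95% exact binomial intervals for counting error) in wildtype 1, wildtype 2 and mog-2(ok1221), for the 8 introns with a higher (left) and the 8 with a lower ratio (right). C04G2.10 intron 2 goes from 3.51% and 10.1% to 74.0%, and F10E7.2 intron 1 from 2.69% and 1.97% to 17.7%.

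At some listed boundaries most of the reads were unspliced in each library that had any, so the measure there is a level of unspliced reads and not of splicing. Such reads rose at best-25, from 24 and 38 in wildtype to 435 in mog-2(ok1221) with 37 in rnp-3(ok1424), and at the osm-9 gene of a sensory TRPV channel, from 3 and 3 to 78 (limma on the ratio, adjusted p = 0.00921 and 0.00921). At srx-7, a chemoreceptor gene, there were 0 in both wildtype libraries and 42 in mog-2(ok1221) (limma, adjusted p = 0.0095). At best-25, rnp-2(mg582) held 135 and 80 unspliced reads and rnp-2(tm4058) 31. These libraries had 177953, 201227 and 73852 spliced reads in total, against 296830 in wildtype 1 and 474285 in wildtype 2. Relative to those totals best-25 stood above wildtype in the rnp-2 libraries too. With so few wildtype reads at osm-9 and srx-7, the listing at 0.5 CPM may itself favour a higher value in mog-2(ok1221). Their calls are no independent sign of the direction. Unspliced reads fell at T25B2.4, from 86 and 131 reads to 7 (adjusted p = 0.0196 by limma). The next boundary of C04G2.10 in the table, with 1 end listed, also had more unspliced reads in mog-2(ok1221). It had 9, 8 and 80 unspliced and 2, 0 and 5 spliced reads in wildtype 1, wildtype 2 and mog-2(ok1221). Unlike at intron 2, most of its reads were unspliced in wildtype already.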

How the data were processed

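Small RNA libraries of embryos were compared at splice junctions. The deposited table gives CPM (reads scaled to library size) for exon-exon (EEJ) and intron-exon (IEJ) junction reads, per the file headers. Per the submitters' processing notes, tools included STAR and SAMtools. No build, strand rule or treatment of reads with several matches is stated there. The deposited CPM steps gave whole reads for all values within 1e-06. Lines were joined into 7678 introns, and introns sharing reads were merged into 7287 junctions of 3717 genes. Coordinates are those of WBcel235, where 98.1% of lines lie at an annotated intron boundary. Gene names matched the annotation for 3172 genes, an older name for 379 and none for 166.

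Spliced reads per gene were tested with limma 3.58.1 (trended, log2(TMM-scaled CPM + 0.5), 7 libraries, 1 coefficient per genotype, 2 residual degrees of freedom) in R 4.3.3, with Benjamini-Hochberg adjustment over 3551 genes. Fold changes are on that log2 scale and understate changes of low genes. The log2 ratio of unspliced to spliced reads was tested the same way over 7186 introns. Other tests (edgeR 4.0.16, DESeq2 1.42.0), scalings, pseudocounts and filters were alternatives, and those added after seeing the data include the minimum of 10 unspliced reads and the contrast with rnp-3(ok1424). Scripts were tested on simulated data. Experiment numbers pair libraries by the titles, and the deviations of wildtype and rnp-2(mg582) correlated at 0.383 over 3551 genes. Named genes were the 10 largest rises and falls past both wildtype libraries by at least 2-fold at 5 scaled CPM or more, plus leading limma calls. The members and lists were chosen with earlier results of these data known. Genes named from lists or as examples were chosen after their values were seen. Intervals and limits from 0 reads cover counting error only.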

Additional observations from a re-analysis of the deposited data

How the results depend on the processing

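The 76 genes called by limma kept their sign under every alternative that tested them, and the gene count was 45 with at least 5 CPM, 2 with library size alone, 2 without a filter, and 0 to 90 with each library left out. With the replicate block, which pairs libraries by experiment number, 490 genes and 841 introns passed. The limma count of introns was 38 with a pseudocount of 0.1, 101 from donor ends, 23 from acceptor ends and 1 with the edgeR interaction, and 0 to 103 with each library left out. With at least 10 unspliced reads it was 14, with the replicate block then 0 (269 at an unadjusted p under 0.05), and with edgeR 7. The ratio of 1 K02D10.3 intron, with 1 unspliced read over wildtype 1, wildtype 2 and mog-2(ok1221), changed sign to 0.61 with the edgeR interaction. Genes at least 2-fold beyond both wildtype libraries numbered 279 with library size alone, 251 and 88 with pseudocounts of 0.1 and 1, 38 with at least 5 CPM, and 241 to 245 without either wildtype library. Introns by the same rule numbered 187 with a pseudocount of 0.1, 58 with 50 reads, 167 with 10 reads, 27 with at least 10 unspliced reads, and 179 to 215 without either wildtype library. The unspliced share of mog-2(ok1221) was 3.59% at donor ends, 3.46% at acceptor ends and 8.75% without the 10 genes with the most reads. Without those 10 genes it was 7.88% in wildtype 1 and 8.03% in wildtype 2, so wildtype rose as well. The cause was not tested. With 1 mog-2(ok1221) library, the spread of that genotype was not measured. Below about 1 scaled CPM, or under 10 unspliced reads, differences rest on a few reads.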

Other observations

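Genes on the X chromosome had fewer spliced reads relative to the other listed genes. The median log2 difference of mog-2(ok1221) from wildtype 1 was -0.24 over 251 tested genes of X, and -0.27 with library size alone, while wildtype 2 differed from wildtype 1 by -0.07. Of 115 X genes at 1 scaled CPM or more, 5 stood at least 2-fold above and 23 at least 2-fold below both wildtype libraries (4.35% and 20%), against 61 and 67 of 956 autosomal genes (6.38% and 7.01%). By limma 4 X genes rose and 12 fell, and 31 and 29 autosomal genes did. Against the same wildtype 1 library, the X median was 0.11 in rnp-3(ok1424), -0.32 and -0.32 in rnp-2(mg582) and -0.37 in rnp-2(tm4058), and these values share that control. The difference between X and the autosomes was not tested.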
